A study of Chlorella variabilis with 6 samples.

Results

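Among the 9625 genes counted in the green alga Chlorella variabilis NC64A, 116 were at least 4-fold lower in the overexpression line LOG OX1 than in the wild type (WT), and these 116 genes are described here. They were chosen from the measured values themselves: a gene entered if its mean level in WT was at least 10 counts per 1000000 counts of the library (CPM), if the WT mean over the LOG OX1 mean, each with 0.1 CPM added, was at least 4, and if every LOG OX1 library lay below every WT library. Of the 118 genes that met these limits, 2 were left out by the rule, CHLNCDRAFT_59740 and CHLNCDRAFT_6687, which leaves 116. Folds are given throughout as WT over LOG OX1, so that a fold of 5 means 5-fold lower in LOG OX1. Because the difference between the lines chose the genes, its size in them is a description and is given with no test.

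LOG OX1 and WT were each represented by 3 libraries of cultures taken at 14 days post inoculation (dpi), 1 h before the dark phase, in modified Bold's basal medium under a light:dark cycle. LOG OX1 is 1 line obtained by electroporation, in which the constitutive 35S promoter of the vector pMDC32 drives CvarLOG1, and it was selected on hygromycin. WT is the strain that was not transformed, and no line carrying the vector alone was analysed here, so the effects of the enzyme, of the insertion and of the selection cannot be told apart. The paper reports slower growth and fewer cells in LOG OX1 at this age, and a smaller share of cells entering mitosis. Cultures of equal age were thus not matched in growth, and what part this has was not tested. The 3 libraries of a line are named biological replicates in the methods, but all LOG OX1 libraries come from the same line. The paper chose this line because it showed the best phenotype. RNA was taken from whole cultures, in which fewer cells with a transcript and less transcript per cell cannot be told apart.

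Cytokinins are hormones derived from adenine that promote cell division in land plants and affect growth in microalgae. LONELY GUY (LOG) enzymes release the active free-base hormone from its inactive nucleotide form, and CvarLOG1 encodes the enzyme of this alga. Most genes of the alga carry only a locus number, and the function of a protein is mostly inferred from similarity to proteins of other species.

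CvarLOG1 (CHLNCDRAFT_28106), which checks the labels, stood at 38.2, 40.5 and 35.8 CPM in the LOG OX1 libraries, against 20.3, 20.03 and 23.5 CPM in the WT libraries. The groups did not overlap, with means of 38.1 ± 2.37 CPM in LOG OX1 and 21.3 ± 1.94 CPM in WT (SD, n = 3 each). Its log2 fold change, LOG OX1 over WT, was 0.86 ± 0.09 (SE, adjusted p = 1.42e-07 over 9101 genes, edgeR quasi-likelihood test, Benjamini-Hochberg). The exact two-sided permutation test gave p = 0.1, the smallest that 3 libraries against 3 allow. Reads of the introduced and the native copy were counted together.

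The LOG OX1 libraries held between 10180885 and 12444029 counts and the WT libraries between 10743741 and 12546100. At this depth 3 counts, the limit that a count of 0 allows, correspond to between 0.239 and 0.295 CPM. Pairs of replicates differed by more than counting noise (chi-squared per degree of freedom between 2.40 and 7.26), and no library was a copy of another. Over the 9101 genes tested, 14.6% were called lower and 14.0% higher in LOG OX1 at an adjusted p of at most 0.05 and a fold of at least 1.5, and in 38.9% every LOG OX1 library lay below every WT library. All 116 genes passed the filter on low counts, and all 116 were called lower by the same test, which the way of choosing them had made likely. At any level in WT, 1.6% of the genes tested were at least 4-fold lower with every LOG OX1 library below every WT library. A rule of the same limits in the other direction found 115 genes.

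The smallest fold among the 116 genes was 4.06, the largest 481 and the median 6.37, which is the same with the genes without a read in LOG OX1 set at their bound. Over all genes tested the median log2 fold change, LOG OX1 over WT, was 0.00. In 33 genes the fold was under 5, in 55 it was between 5 and 10, in 17 between 10 and 20, and in 11 it was 20 or more. Mean levels in LOG OX1 had a median of 23.3 CPM and a highest value of 3944 CPM, against a median of 147.9 CPM and a highest value of 16648 CPM in WT. Only 9 genes fell under 1 CPM in LOG OX1, and 12 stayed above 100 CPM there. Most of the set was thus reduced in LOG OX1 and still read in every library of it. The 47 genes with a WT level of 10 to 100 CPM had a median fold of 7.19, with 15 genes at 10-fold or more. The 66 genes with a WT level of 100 to 1000 CPM had a median fold of 6.23, with 12 genes at 10-fold or more. CPM values are not divided by gene length, so they compare a gene between libraries and not 1 gene with another.

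**Figure D1:**
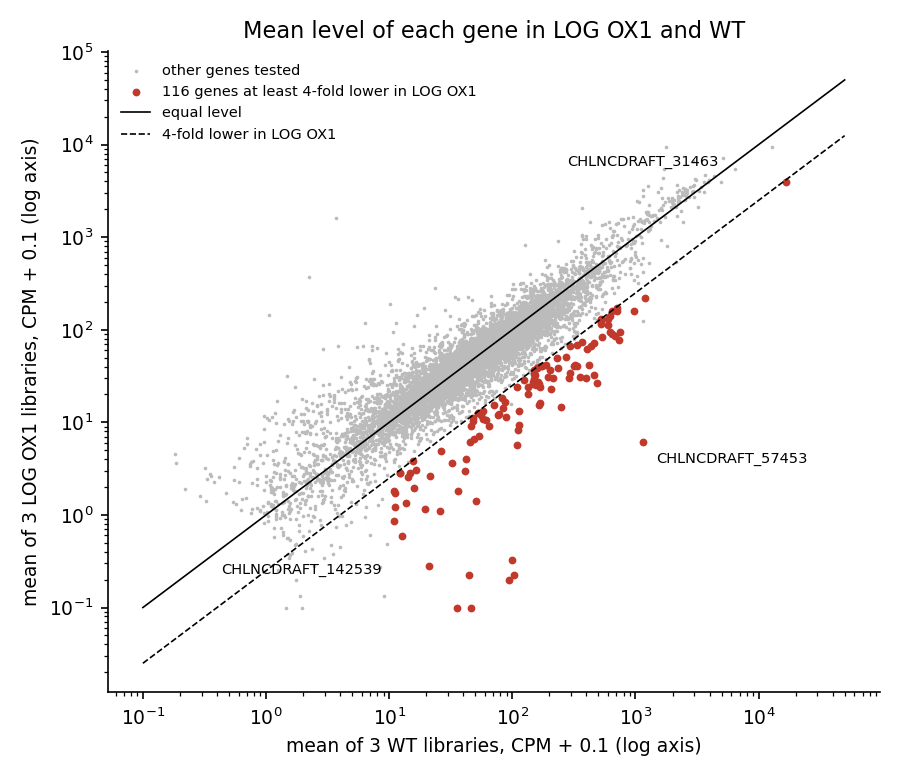
Mean CPM of each gene tested, LOG OX1 on the y axis and WT on the x axis, both with 0.1 CPM added and on log axes; each point is the mean of 3 libraries. The 116 genes (red) lie below the dashed line of a 4-fold difference by construction, most of them close to it, while CHLNCDRAFT_57453 and a group of genes near 0.1 to 0.3 CPM in LOG OX1 lie far under it.

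Every LOG OX1 library lay below every WT library in each gene of the set, as the rule required. The lowest WT library exceeded the highest LOG OX1 library by a median of 5.56-fold, and the smallest such gap was 3.11-fold. The coefficient of variation (SD over mean) over 3 libraries had a median of 7.95% in LOG OX1 and of 3.95% in WT. Over the 8034 genes with a WT level of at least 10 CPM it was 4.49% in LOG OX1 and 4.63% in WT. The median of the 116 genes was thus higher than that of all genes in LOG OX1 and close to it in WT, and what part the lower level in LOG OX1 has in this was not tested. The LOG OX1 library with the highest level was replicate 1 in 32 genes, replicate 2 in 39 and replicate 3 in 45. These were 27.6%, 33.6% and 38.8% of the set, against 36.6%, 30.9% and 32.5% of those 8034 genes. The highest WT library was replicate 1 in 49 genes, replicate 2 in 38 and replicate 3 in 29. These were 42.2%, 32.8% and 25.0% of the set, against 37.4%, 30.2% and 32.4% of the 8034 genes. No single library held the highest value in most of the set.

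When the same limits were applied to 5 libraries at a time, they found between 114 and 120 genes, of which between 110 and 116 were among the 116. The library that had played no part then gave a value of its own for each gene. Without LOG OX1 replicate 1, all 114 genes found lay in that library below every WT library, with a median fold of 6.44, and 106 of them were at least 4-fold lower there. Without LOG OX1 replicate 2, all 118 genes lay below WT in that library, with 112 at 4-fold or more. Without LOG OX1 replicate 3, 117 of 118 genes did so, with 109 at 4-fold or more. For comparison, between 47.2% and 47.7% of all genes with a WT level of at least 10 CPM lay below every WT library in the LOG OX1 library left out, and the WT libraries were used both in the choice and in these folds. Without WT replicates 1, 2 and 3 in turn, all 114, 118 and 120 genes found lay above every LOG OX1 library in the WT library left out. So did 48.4%, 47.4% and 47.5% of all genes with that WT level. Here the LOG OX1 libraries were used both in the choice and in the comparison. The shares over all genes carry no fold limit. With gaps this wide against the spread within a line, the outcome was likely in advance, so these counts are a description. The gene that did not lie below WT in LOG OX1 replicate 3 was CHLNCDRAFT_50500, which stood at 0.959, 0.884 and 18.2 CPM in LOG OX1, against 29.8, 21.5 and 1.59 CPM in WT, so that 1 library of each line went with the other line. It is not among the 116 genes and was named after its values were seen.

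Of the 116 genes, 114 have a row in the study's table of differentially expressed genes, from which names and terms, and no values, were taken. According to the paper, genes were matched against reviewed algal proteins of UniProt, so no match means none in that collection. A protein match is given for 11 of these 114 genes (9.65%) and a name other than uncharacterized protein alone for 5 (4.39%). CHLNCDRAFT_143501 is counted among the 5, although its name is only a similarity to an uncharacterized bacterial protein. Of the 738 other genes that the study lists as lower, 164 (22.2%) have a match and 114 (15.4%) such a name, and of the 788 it lists as higher, 178 (22.6%) have a match and 142 (18.0%) such a name. The difference between these shares was not tested, and the genes in the tables were selected by the study's own threshold.

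The gene with the most counts of the set was CHLNCDRAFT_31463, annotated as elongation factor EF-3. EF-3 is known from fungi as an ATPase with paired ATP-binding cassettes that binds the ribosome and is needed there in each round of elongation. It stood at 3940, 3985 and 3905 CPM in the LOG OX1 libraries, against 16959, 16900 and 16085 CPM in the WT libraries. The values within each line lay close together, with means of 3944 ± 40.1 CPM in LOG OX1 and 16648 ± 488 CPM in WT (SD, n = 3 each), a fold of 4.22. It had the smallest coefficient of variation of the set in LOG OX1, 1.02%. EF-3 alone took 0.394% ± 0.004 of the gene counts of a LOG OX1 library, against 1.66% ± 0.05 of a WT library (SD, n = 3 each).

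The 116 genes together took 0.799%, 0.811% and 0.804% of the counts in the LOG OX1 libraries, against 4.35%, 4.34% and 4.20% in the WT libraries. The means were 0.805% ± 0.006 in LOG OX1 and 4.30% ± 0.08 in WT (SD, n = 3 each), a difference of 3.49 percentage points. The 115 genes other than EF-3 took 0.410% ± 0.005 of the counts in LOG OX1 and 2.63% ± 0.04 in WT, a difference of 2.22 percentage points. CPM are relative to totals that include these reads, and with EF-3 taken out of the library totals the rule found 120 genes.

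**Figure D2:**
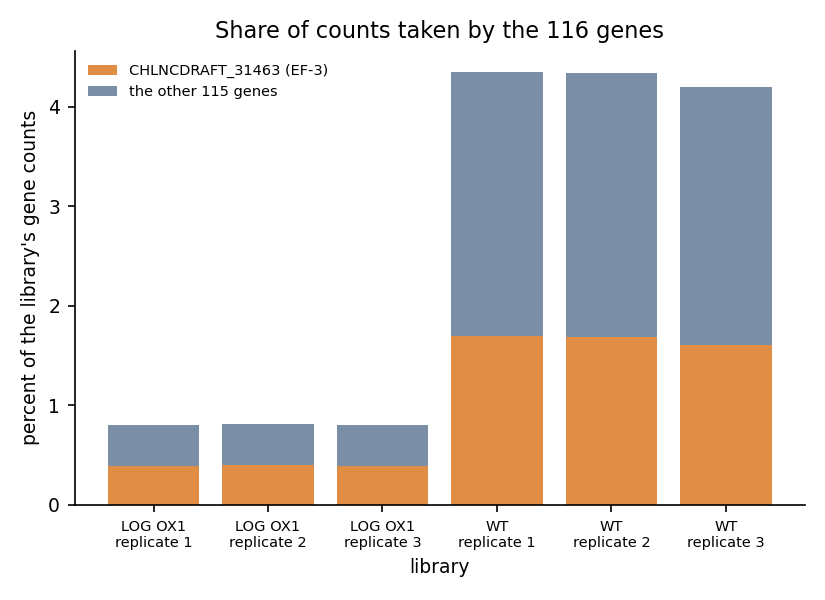
Percent of each library's gene counts (y axis) taken by CHLNCDRAFT_31463 (EF-3, orange) and by the other 115 genes (grey), 1 bar per library. The 3 LOG OX1 bars end between 0.799% and 0.811% and the 3 WT bars between 4.20% and 4.35%, and EF-3 makes up a large part of each bar.

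Among these 5 genes, the largest fold was in CHLNCDRAFT_143501, similar to an uncharacterized bacterial protein with a cystatin-like fold. It had 23.7, 28.7 and 26.8 CPM in LOG OX1, against 490.6, 511.1 and 469.2 CPM in WT, a fold of 18.5. CHLNCDRAFT_145257 encodes an endo-1,3-beta-glucanase of glycoside hydrolase family GH16, a kind of enzyme that cuts beta-glucans of cell walls and reserves. It had 15.8, 13.8 and 13.8 CPM in LOG OX1, against 255.4, 245.9 and 249.0 CPM in WT, a fold of 17.1. In both genes the libraries of a line lay within a narrow band and the bands were more than 10-fold apart. CHLNCDRAFT_145257 carries the term for carbohydrate metabolism, and of 8 other genes that the study lists with it, 4 were called lower and 4 higher. The study's table holds only genes that the study called, with 738 genes outside the set listed as lower and 788 as higher. Counts by term given here therefore do not cover all genes with a term.

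CHLNCDRAFT_144939 encodes a putative protein with an NF-X1 zinc finger and a helicase domain. NF-X1 fingers are known from transcriptional regulators in animals and in Arabidopsis, and helicases unwind nucleic acids. It had 2.97, 4.26 and 3.44 CPM in LOG OX1, against 32.0, 32.7 and 31.9 CPM in WT, a fold of 8.84. Of 11 other genes that the study lists with the helicase term, 2 were called lower and 9 higher. These too are only genes that the study called, and not all genes with the term. Of 2 others with the term for a DNA-binding transcription factor, 1 was called lower and 1 higher. The lower gene is CHLNCDRAFT_6687, which met the limits of the set and was left out by the rule. CHLNCDRAFT_57929 is annotated as nicotianamine aminotransferase A, an enzyme that in barley takes part in making iron-chelating phytosiderophores. It had 24.4, 24.3 and 23.6 CPM in LOG OX1, against 163.8, 170.9 and 169.7 CPM in WT, a fold of 6.95. Of 2 others that the study lists with its transaminase term, 1 was called lower and 1 higher.

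The other 6 genes with a match are named uncharacterized proteins. 3 of them, CHLNCDRAFT_57211, CHLNCDRAFT_30336 and CHLNCDRAFT_138483, carry the term for an ATPase that moves substances across a membrane, the activity of ABC transporters. CHLNCDRAFT_57211 had 158.7, 156.0 and 159.5 CPM in LOG OX1, against 720.8, 729.7 and 680.8 CPM in WT, a fold of 4.49. CHLNCDRAFT_30336, its direct neighbour in the genome, had 115.3, 115.6 and 112.7 CPM in LOG OX1, against 556.2, 500.1 and 517.9 CPM in WT, a fold of 4.58. The 2 neighbours with the same term had nearly the same fold, in a set where 33 of the 116 genes had a fold between 4 and 5. CHLNCDRAFT_138483 had 33.8, 39.5 and 42.8 CPM in LOG OX1, against 165.9, 160.0 and 153.5 CPM in WT, a fold of 4.12. The study's tables list 3 further genes with this term, of which 2 were called lower and 1 higher, and since those tables hold only genes that the study called, they do not count the whole family.

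The term for a serine/threonine phosphatase, an enzyme that removes phosphate from proteins, is carried by CHLNCDRAFT_139942, with 70.0, 74.3 and 61.3 CPM in LOG OX1, against 342.0, 337.4 and 324.4 CPM in WT, a fold of 4.88. CHLNCDRAFT_14705 carries the term for a GTPase activator, a protein that switches off small G proteins. It had 10.6, 11.4 and 8.74 CPM in LOG OX1, against 48.6, 45.2 and 49.6 CPM in WT, a fold of 4.62. The 1 other gene that the study lists with this term was called lower. CHLNCDRAFT_140648, with a match but no term, had 140.7, 160.1 and 172.8 CPM in LOG OX1, against 677.2, 661.1 and 609.7 CPM in WT, a fold of 4.11. In these 3 genes too the groups were apart by far more than their spread, which the way of choosing the genes had made likely. The uncharacterized genes were named here because they have a match, after their values were seen.

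**Figure D3:**
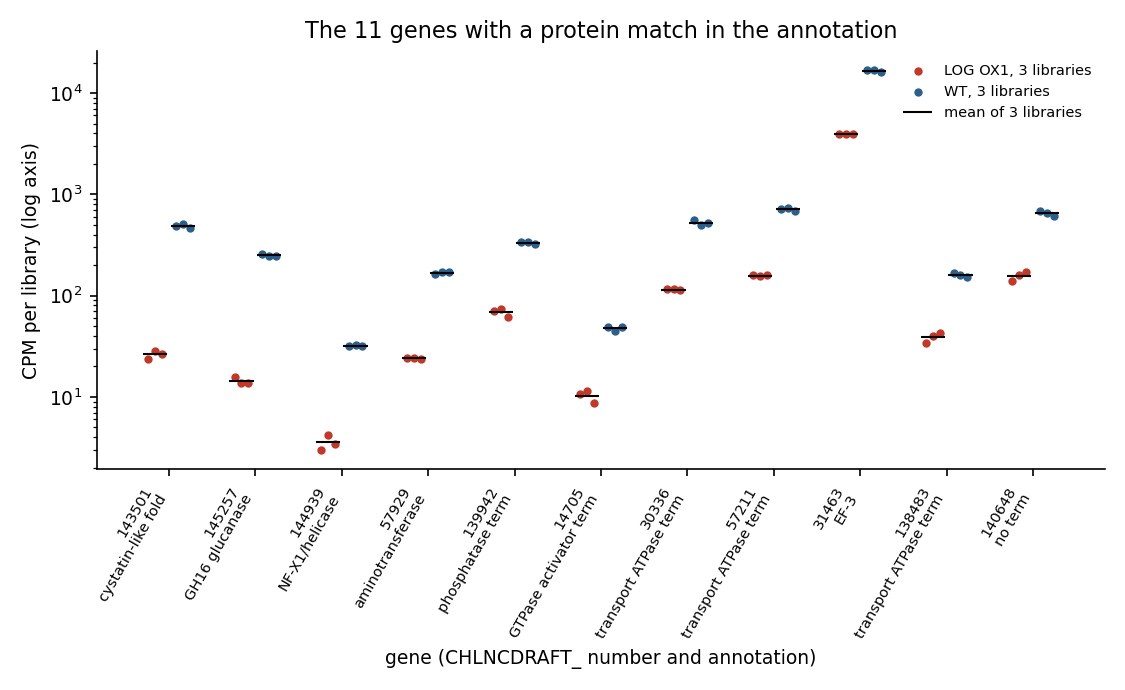
CPM per library (log axis) of the 11 genes with a protein match, LOG OX1 (red) left of WT (blue) in each pair, with a black line at the mean of 3 libraries; genes run in the order of their fold, largest at the left. The LOG OX1 points lie below the WT points in all 11 genes, by 18.5-fold at the left end and 4.11-fold at the right end.

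The other genes with the highest CPM in WT have no protein match. CHLNCDRAFT_143229 had 212.7, 229.0 and 218.6 CPM in LOG OX1, against 1116, 1263 and 1218 CPM in WT, a fold of 5.44. CHLNCDRAFT_143440 had 158.1, 156.6 and 161.1 CPM in LOG OX1, against 936.1, 963.9 and 1005 CPM in WT, a fold of 6.10. CHLNCDRAFT_142385 had 76.4, 76.9 and 80.3 CPM in LOG OX1, against 741.2, 751.3 and 698.7 CPM in WT, a fold of 9.37. These genes were still read at 76.4 CPM or more in every LOG OX1 library. CHLNCDRAFT_138315 averaged 95.3 ± 2.14 CPM in LOG OX1 and 743.9 ± 26.5 CPM in WT (fold 7.80). CHLNCDRAFT_145631 averaged 85.7 ± 5.24 CPM in LOG OX1 and 677.1 ± 28.5 CPM in WT (fold 7.89). CHLNCDRAFT_58489 averaged 170.7 ± 2.43 CPM in LOG OX1 and 710.8 ± 19.7 CPM in WT (fold 4.16, SD, n = 3 each for these genes). In each of them the spread within a line was a small part of the gap, which the way of choosing the genes had made likely.

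CHLNCDRAFT_57453 stood out among the genes with a high level in WT. It had 7.77, 5.87 and 4.62 CPM in LOG OX1 (81, 73 and 47 counts), against 1190, 1148 and 1147 CPM in WT (12789, 13635 and 14393 counts), a fold of 187.9. None of the other 18 genes of the set with over 500 CPM in WT averaged under 77.9 CPM in LOG OX1. The gene has no protein match, and its neighbours on either side were not members of the set.

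The remaining genes with the largest folds had low levels in LOG OX1. CHLNCDRAFT_142539 had 1, 2 and 3 counts in the LOG OX1 libraries, against 238, 251 and 250 counts in the WT libraries. From the summed counts, 6 in LOG OX1 and 739 in WT, the fold was 115.7, with an exact 95% counting interval of 52.9 to 316.4. CHLNCDRAFT_136749 had 1.06, 1.04 and 1.87 CPM in LOG OX1, against 54.4, 48.9 and 49.0 CPM in WT, a fold of 35.8. CHLNCDRAFT_142112 had 1.82, 0.723 and 0.491 CPM in LOG OX1, against 24.0, 27.8 and 25.7 CPM in WT, a fold of 23.3. Its log2 ratio, LOG OX1 over WT, was -4.54, and -5.20 without LOG OX1 replicate 1. The 3 genes were each nearly silent in LOG OX1, and none has a protein match.

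By the ratio of the rule, the 6 largest folds of the set belonged to 6 genes that follow each other without a gap in the order of the annotation. This ranking depends on the 0.1 CPM added: with 1 CPM added, the log2 ratio, LOG OX1 over WT, was -7.36 in CHLNCDRAFT_57453 and between -6.54 and -5.19 in the 6 genes. In this run LOG OX1 was at or close to 0 reads, whereas WT held between 376 and 1355 reads per gene and library. CHLNCDRAFT_141473 had 1, 1 and 2 counts in LOG OX1, against 524, 518 and 523 counts in WT. CHLNCDRAFT_141474 had no count in any LOG OX1 library, against 376, 417 and 460 counts in WT, and was at least 129.6-fold lower, taking 3 counts per LOG OX1 library as the limit. CHLNCDRAFT_141476 had 0, 6 and 2 counts in LOG OX1, against 1052, 1168 and 1255 counts in WT. Each of these genes was thus read at a steady level in WT. CHLNCDRAFT_141477 had 3, 1 and 0 counts in LOG OX1, against 1068, 1211 and 1355 counts in WT. CHLNCDRAFT_141478 had no count in any LOG OX1 library, against 498, 538 and 585 counts in WT, and was at least 167.9-fold lower by the same limit. CHLNCDRAFT_28362 had 2, 0 and 1 counts in LOG OX1, against 1065, 1059 and 1195 counts in WT. All 6 genes gave the same picture in every library. CHLNCDRAFT_141474 and CHLNCDRAFT_141478 have no row in the study's table, and the other 4 have no protein match in it.

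For the 4 genes of the run with a few reads, the fold from the summed counts was 367.7 for CHLNCDRAFT_141473 (exact 95% interval 143.3 to 1351), 408.2 for CHLNCDRAFT_141476 (206.9 to 946.2), 853.7 for CHLNCDRAFT_141477 (333.1 to 3135) and 1040 for CHLNCDRAFT_28362 (355.4 to 5044). These intervals overlap one another, so the 4 folds could not be ranked at this depth. For the genes without a read in LOG OX1, the same interval had a lower limit of 318.7 for CHLNCDRAFT_141474 and 412.5 for CHLNCDRAFT_141478. The limits of 129.6 and 167.9 given above are lower because they take 3 counts in each LOG OX1 library. By the ratio of the rule, the log2 value, LOG OX1 over WT, was -8.24 for CHLNCDRAFT_141476, and -8.96 without LOG OX1 replicate 2. It was -8.86 for CHLNCDRAFT_141477, and -9.52 without LOG OX1 replicate 1. Intervals and limits from counts cover counting error only.

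The run lies near the end of an inferred scaffold of 56 genes, with only 2 genes after it. The annotation gives no scaffold names, and a new scaffold was taken to begin where the start positions fall back. The gene before the run, CHLNCDRAFT_141472, had 248, 300 and 233 counts in LOG OX1, against 235, 311 and 312 counts in WT, and was not called. The gene before that, CHLNCDRAFT_28384, had 583, 681 and 541 counts in LOG OX1, against 859, 996 and 1067 counts in WT, and was below the fold needed for a call. The change thus set in between CHLNCDRAFT_141472 and CHLNCDRAFT_141473. After the run, CHLNCDRAFT_141480 had 2, 4 and 3 counts in LOG OX1, against 10, 16 and 27 counts in WT, and was called lower (log2 fold change -2.40 ± 0.49, SE, adjusted p = 0.000352, edgeR). CHLNCDRAFT_28370, the last gene, had no count in LOG OX1, against 1, 8 and 0 counts in WT, too few to be tested. Both genes were low in WT as well. The cause of the missing reads was not tested.

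**Figure D4:**
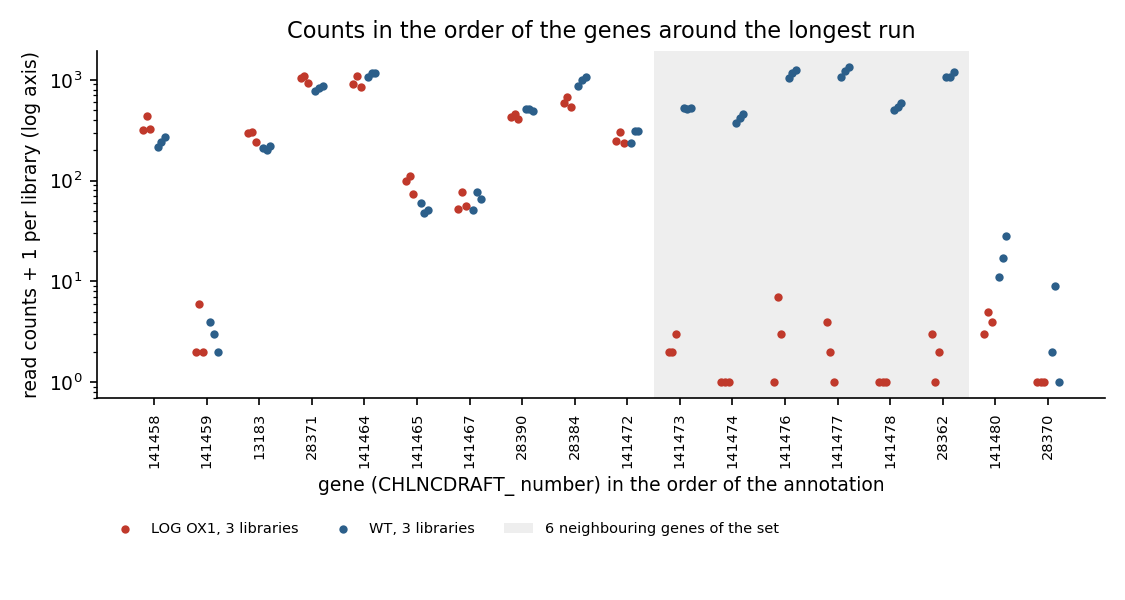
Read counts plus 1 per library (log axis) for genes in the order of the annotation, LOG OX1 (red) left of WT (blue) at each gene, with the run of 6 genes shaded. Up to CHLNCDRAFT_141472 the points of both lines lie near each other, within the shading LOG OX1 has between 0 and 6 counts and WT between 376 and 1355, and the 2 genes to the right are low in both lines.

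A second run held 3 genes, CHLNCDRAFT_49957, CHLNCDRAFT_137918 and CHLNCDRAFT_49959, and none of them was near 0 in LOG OX1. CHLNCDRAFT_49957 had 84.7, 89.4 and 97.2 CPM in LOG OX1, against 632.6, 664.3 and 627.1 CPM in WT, a fold of 7.08. CHLNCDRAFT_137918 had 13.9, 16.3 and 12.7 CPM in LOG OX1, against 82.2, 91.4 and 76.0 CPM in WT, a fold of 5.79. CHLNCDRAFT_49959 had 70.5, 70.1 and 61.0 CPM in LOG OX1, against 426.4, 429.5 and 446.8 CPM in WT, a fold of 6.45. The 3 folds lay between 5.79 and 7.08, in the range of 5 to 10 that held 55 of the 116 genes. The gene on the near side, CHLNCDRAFT_137916, was also called lower (58.3 CPM in LOG OX1 and 151.0 CPM in WT, log2 fold change -1.35 ± 0.05, SE, adjusted p = 2.01e-13, edgeR). The gene on the far side, CHLNCDRAFT_137920, had 371, 429 and 357 counts in LOG OX1, against 401, 423 and 454 counts in WT, and was not called.

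Another 18 genes of the set stood in 9 pairs of direct neighbours, which were named after their values were seen. The pair with the largest folds was CHLNCDRAFT_134386, with 32.0 ± 2.20 CPM in LOG OX1 and 457.5 ± 17.8 CPM in WT (fold 14.3), and CHLNCDRAFT_134387, with 8.17 ± 1.63 CPM in LOG OX1 and 110.6 ± 4.32 CPM in WT (fold 13.4, SD, n = 3 each). In several pairs the folds of the partners were close, in a set where 33 genes had a fold between 4 and 5 and 55 between 5 and 10. Whether neighbours were closer in fold than other genes of the set was not tested. CHLNCDRAFT_57532 and CHLNCDRAFT_144438 were 4.30-fold and 4.34-fold lower, and CHLNCDRAFT_138820 and CHLNCDRAFT_26777 5.22-fold and 5.32-fold lower. In other pairs they were not: CHLNCDRAFT_139173 was 5.33-fold lower and CHLNCDRAFT_139174 10.7-fold, and CHLNCDRAFT_137467 4.38-fold and CHLNCDRAFT_137468 7.80-fold. The sources used here do not say whether the counting used the strand, so reads where neighbours overlap, also on opposite strands, may have been given to either gene.

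In all, 27 of the 116 genes (23.3%) were direct neighbours of another gene of the set, while 2.07% of the 9509 genes outside it stood next to one. A larger set of lowered genes has more neighbours within it, and of all 1328 genes called lower 531 (40.0%) stood next to another gene called lower. Those 1328 genes are 14.6% of the genes tested and the 116 genes 1.21% of all genes, so 40.0% and 23.3% have unlike backgrounds. Without the run of 6 genes, 21 genes of the set had a neighbour in it. The other 89 genes were single, and the set was spread over 31 of 171 inferred scaffolds, including 25 of the 29 scaffolds with at least 100 genes. On those 25 the set made up between 0.173% and 3.81% of the genes, against 1.21% of all genes.

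The genes outside the set that stand next to one of its genes were also examined. Neighbours that met all the limits are members of the set and so are not among them, and the values below are a description of the neighbours that missed a limit. Of 197 such genes 188 were tested, and 42 (22.3%) were called lower and 20 (10.6%) higher in LOG OX1, against 14.6% and 14.0% of all genes tested. Their median log2 fold change, LOG OX1 over WT, was -0.07, against 0.00 over all genes tested. No test of these shares was made.

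**Figure D5:**
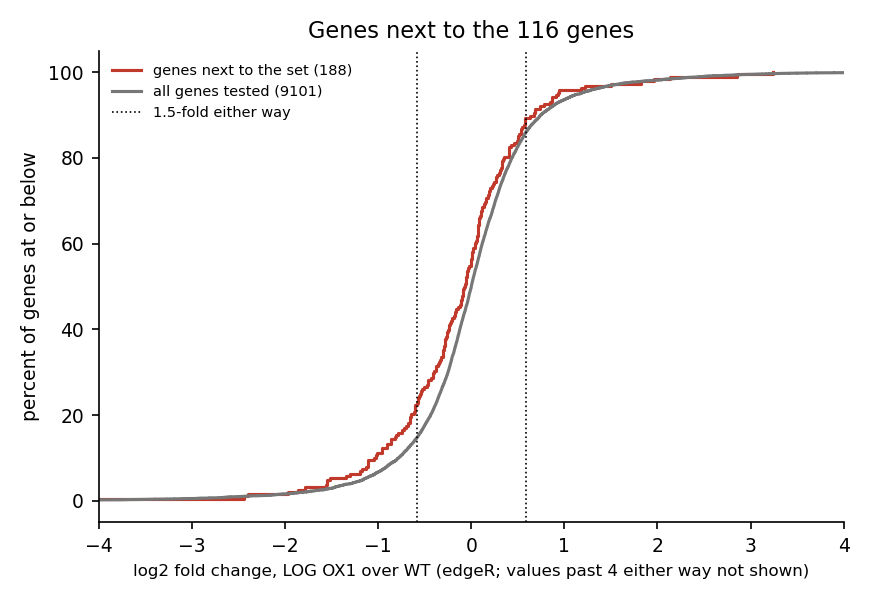
Cumulative percent of genes (y axis) by log2 fold change, LOG OX1 over WT, from edgeR (x axis), for the 188 genes tested next to the set (red) and all 9101 genes tested (grey), with dotted lines at a 1.5-fold difference. The red line lies above the grey one left of the middle, where 22.3% of the neighbours and 14.6% of all genes were called lower, and most of both curves lies between the dotted lines.

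Some neighbours with large reductions or increases were named after their values were seen. CHLNCDRAFT_145157, next to CHLNCDRAFT_35227, averaged 0.0320 CPM in LOG OX1 and 1.77 CPM in WT (log2 fold change -5.43 ± 0.69, SE, adjusted p = 2.55e-06, edgeR). CHLNCDRAFT_51632, next to the pair of CHLNCDRAFT_57532 and CHLNCDRAFT_144438, averaged 78.7 CPM in LOG OX1 and 313.9 CPM in WT (log2 fold change -1.97 ± 0.04, SE, adjusted p = 4.83e-16, edgeR). It missed the limit of the set with a fold of 3.98, so that 3 neighbours there were lower by about the same fold. By log2 fold change, CHLNCDRAFT_138177 (-2.44 ± 0.30, SE, adjusted p = 1.65e-06, edgeR) and CHLNCDRAFT_141480 (-2.40) were lowered more than CHLNCDRAFT_51632. Their WT means were low, 3.58 and 1.48 CPM. In the other direction, CHLNCDRAFT_144926, next to CHLNCDRAFT_14705, averaged 9.41 CPM in LOG OX1 and 1.31 CPM in WT (log2 fold change 2.85 ± 0.20, SE, adjusted p = 1.49e-09, edgeR). CHLNCDRAFT_134397, next to CHLNCDRAFT_13280, averaged 5.67 CPM in LOG OX1 and 0.603 CPM in WT (log2 fold change 3.24 ± 0.27, SE, adjusted p = 1.22e-08, edgeR). Genes that changed in opposite directions thus also stood side by side.

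The limits cut through a continuous range of values. Just inside the limit of 4-fold were CHLNCDRAFT_142314 (4.06-fold), CHLNCDRAFT_137075 (4.10-fold) and CHLNCDRAFT_140648 (4.11-fold). Just outside were CHLNCDRAFT_51632 and CHLNCDRAFT_58012 (3.98-fold each) and CHLNCDRAFT_135909 (3.96-fold). Just inside the limit of 10 CPM in WT were CHLNCDRAFT_141534 (0.764 CPM in LOG OX1 and 10.8 CPM in WT), CHLNCDRAFT_145185 (1.72 CPM in LOG OX1 and 10.9 CPM in WT) and CHLNCDRAFT_13222 (1.13 CPM in LOG OX1 and 11.04 CPM in WT). Just outside were CHLNCDRAFT_21466 (0.387 CPM in LOG OX1 and 9.51 CPM in WT), CHLNCDRAFT_54633 (0.0327 CPM in LOG OX1 and 9.05 CPM in WT) and CHLNCDRAFT_145232 (1.39 CPM in LOG OX1 and 8.63 CPM in WT). In all, 36 genes with a lower WT level met the other limits, and some of them, such as CHLNCDRAFT_54633 with 0, 0 and 1 counts in LOG OX1, against 105, 122 and 89 counts in WT, were as near to silent in LOG OX1 as the run of 6 genes.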

How the data were processed

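The deposited values were HTSeq counts per gene, without normalization, made by the authors from paired-end reads trimmed with Trim Galore and aligned by HISAT2 with default settings; versions, strand setting and annotation release are not given in the sources used here. All 9625 identifiers matched the RefSeq annotation of the strain (v 1.0), used for the order of genes only. Counts were divided by library totals for CPM. Genes were tested with edgeR 4.0.16 in R 4.3.3 (filterByExpr, TMM, quasi-likelihood test, Benjamini-Hochberg). The test was checked on simulated counts. DESeq2 1.42.0, scipy 1.17.1, pandas 2.3.3, numpy 2.4.6 and matplotlib 3.10.9 on Python 3.11.15 were also used. The members and lists were chosen with earlier results of these data known. Named members were those with a name other than uncharacterized protein alone and the 10 with the largest fold. The 10 with the highest WT CPM, runs of 3 or more and the genes beside each limit were also named. Replicate numbers of the lines did not pair the libraries.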

Additional observations from a re-analysis of the deposited data

How the results depend on the processing

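The count of 116 genes was between 102 and 145 under the other settings of the rule: TMM library sizes gave 115, an offset of 1 CPM 111, medians 114, a minimum WT level of 1 CPM 145 and of 20 CPM 102, and each library left out in turn 114 to 120. With no fold threshold, 3287 genes were called lower and 3249 higher, against 1328 and 1274, since that setting keeps small differences. Both counts stayed within 1.5 times under DESeq2, RLE factors, plain library sizes, a minimum of 10 counts in each library, no filter and each library left out. Same-numbered libraries of the lines did not deviate together (Pearson r -0.01, 0.00 and -0.21 over 8926 genes), and the replicate number as a block gave 1330 genes lower and 1273 higher. The share of counts differed by 2.22 percentage points without EF-3, against 3.49. CvarLOG1 kept its call in 12 alternatives chosen after seeing the data (log2 fold change 0.82 to 0.95, adjusted p from 4.95e-15 to 5.24e-06), and the count of neighbours called lower was 39 to 45, against 42. With an offset of 1 CPM, 12 of the 31 named members moved by more than their spread, all at 24.1 CPM or less in LOG OX1, and none reversed. Genes near 0 in LOG OX1 have folds limited by depth. Comparisons of protein sequences and promoter motifs were planned and not run, since no sequences were used here.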
